A study of Homo sapiens with 12 samples.

Results

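The 39 genes described here encode the enzymes of glycolysis, the carriers that move glucose and lactate across the cell membrane, kinases that regulate the use of glucose, the HIF transcription factor subunits with their oxygen-dependent regulators, and further genes known to be induced by HIF. They were chosen by symbol and make up 39 of the 61510 rows of the count table and of the FPKM table. There were 17 enzyme genes, 4 carrier genes, 3 kinase genes, 5 HIF and oxygen-sensing genes and 10 other HIF target genes. After a filter on low counts 37 of the 39 were tested. ALDOC, with 80 counts over all libraries, and CA9, with 34, did not pass it and are given by their counts.

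RNA was sequenced from A549/DDP, a human lung adenocarcinoma line that was made resistant to cisplatin and was kept here in medium with 1 µg/ml of it. The shNRF2 cells carried a short hairpin RNA against NRF2, the activator of antioxidant genes that NFE2L2 encodes, and the shNC cells a control hairpin. Each line was treated at 70% confluence with 4 µM GNA (gambogenic acid, a caged xanthone from gamboge resin) or with the solvent DMSO, and collected after 24 h. The 4 groups were therefore shNRF2 GNA, shNRF2 DMSO, shNC GNA and shNC DMSO, with 3 libraries in each, and cisplatin was in the medium of all of them. No low-oxygen incubation is named in the labels, which also do not say whether each hairpin line is 1 clone or whether replicate libraries go back to separate cultures. The p-values below therefore measure the spread between libraries, which may be technical.

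Library totals ran from 12848607 to 17192671 counts. NFE2L2 averaged 45.8 ± 2.00 CPM (counts scaled to the size of the library) in shNRF2 GNA, 50.2 ± 2.80 in shNRF2 DMSO, 87.4 ± 3.85 in shNC GNA and 77.9 ± 3.6 in shNC DMSO (SD, n = 3 each). The keratin gene KRT8 and the A549-typical ALDH1A1 were abundant in every library, while the lung lineage markers NKX2-1, SFTPB and SFTPC and the keratin gene KRT19 did not exceed 0.413 CPM. The markers of fibroblasts, endothelium and leukocytes summed to 8.05 to 10.7 CPM per library. Between libraries of a group, the chi-square of the counts divided by its degrees of freedom was highest for shNC DMSO 1, at 7.58 and 5.96 against the other two, and ran from 2.24 to 5.09 in all other pairs.

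Glycolysis converts glucose to pyruvate in the cytosol, and lactate dehydrogenase then reduces pyruvate to lactate. HIF is a dimer of an oxygen-labile alpha subunit, encoded by HIF1A or EPAS1, and the stable partner ARNT. With oxygen present, prolyl hydroxylases of the EGLN family mark the alpha subunit for the VHL ubiquitin ligase, so that HIF1A protein is set mainly after transcription. When it escapes this, HIF binds ACGTG or GCGTG cores and turns on most glycolytic genes together with genes for blood vessel growth, pH control, mitophagy and collagen modification. Many cancer cells keep glycolysis high in the presence of oxygen, and A549 cells are a common model of that state.

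On the FPKM scale, which divides the counts by library total and gene length, the genes differed widely in level. GAPDH, which oxidises glyceraldehyde 3-phosphate, had the highest mean over the 12 libraries at 859 FPKM and stood at rank 26 among all genes. It was followed by the enolase ENO1 at 324 FPKM, the pyruvate kinase PKM at 229, LDHA at 182 and the triose phosphate isomerase TPI1 at 163. HIF1A came next at 62.2 FPKM, with the carbonic anhydrase CA12 at 56.0, PFKP at 54.9, EPAS1 at 54.3, PGAM1 at 52.0, PGK1 at 46.3 and HK1 at 43.2. At the low end stood PDK1 at 0.268, ANKRD37 at 0.189, ALDOC at 0.170 and CA9 at 0.112 FPKM. Neighbours such as CA12, PFKP and EPAS1 changed places between groups, so their order was not fixed.

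**Figure D1:**
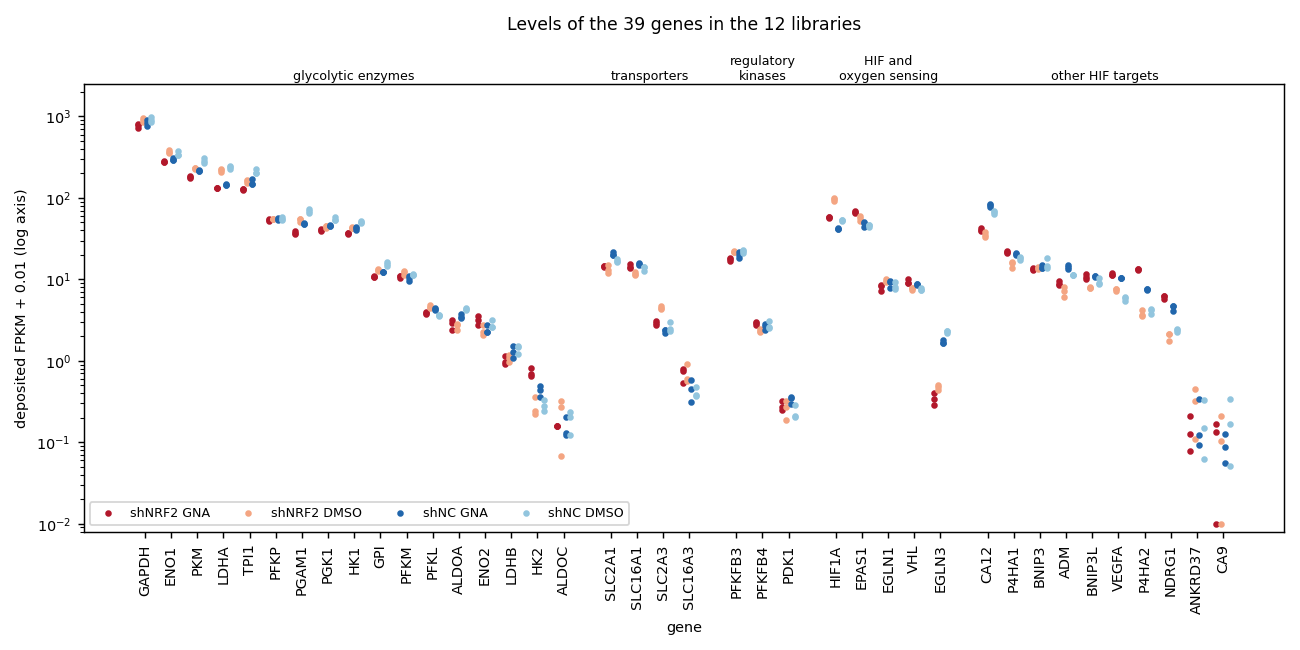
Deposited FPKM of the 39 genes (log axis, with 0.01 added so that a value of 0 can be drawn), ordered by mean within each role. Each point is 1 library and the colours mark the 4 groups; the enzymes run from GAPDH at 859 FPKM to ALDOC at 0.170 FPKM.

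Isozymes of a step differed in their share of its FPKM. Of the summed FPKM of HK1, HK2, HK3 and HKDC1, HK1 held 28.8% ± 0.435 in shNRF2 GNA, 53.8% ± 1.1 in shNRF2 DMSO, 36.0% ± 0.30 in shNC GNA and 51.0% ± 2.37 in shNC DMSO (SD, n = 3 each), and HK2 held at most 0.562% by group mean. HKDC1, a hexokinase-domain gene outside the set, held 70.6% ± 0.401 in shNRF2 GNA, 45.8% ± 1.18 in shNRF2 DMSO, 63.6% ± 0.336 in shNC GNA and 48.7% ± 2.39 in shNC DMSO, so that it lay above HK1 in both GNA groups. ENO1 held 97.9% to 98.5% of the FPKM of ENO1, ENO2 and ENO3 by group mean, and LDHA 99.1% to 99.5% of that of LDHA, LDHB and LDHC. PFKP held 76.8% to 78.9% of the 3 phosphofructokinases. The 2 alpha subunit genes were of similar level: HIF1A took 46.2% ± 0.508 in shNRF2 GNA, 63.0% ± 2.63 in shNRF2 DMSO, 46.4% ± 2.58 in shNC GNA and 54.1% ± 1.11 in shNC DMSO (SD, n = 3 each), and EPAS1 the remainder. Among the annotated exon bases of the aldolase ALDOA, 42.3% are shared with the same-strand gene AC093512.2, which had 70 counts in all against 2327 for ALDOA. For LDHB the shared part is 33.4%, with AC010197.2, which had 6 counts against 640. How the authors' counting treated reads in shared exons is not stated, so the levels of ALDOA and LDHB are uncertain.

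Under GNA most enzyme genes that were called were lower, and most other HIF targets that were called were higher, but a longer list of 30 further HIF targets, given at the end, did not have this one-way pattern. The lists were not tested against each other. In shNRF2 cells GNA lowered 11 of the 16 enzyme genes tested and raised 2, while it raised 6 of the 9 other HIF targets tested and the other 3 were not called. In shNC cells it lowered 12 of the 16 enzymes and the other 4 were not called, and it raised 5 of the 9 targets and lowered 1. The median log2 fold change of the enzymes was -0.31 in shNRF2 and -0.35 in shNC cells. That of the 9 other targets was 0.38 in shNRF2 and 0.18 in shNC cells, beside a median of 0.0098 in shNRF2 and 0.017 in shNC cells over all 15653 genes tested. Over the 30 further HIF targets the median was 0.0925 in shNRF2 and -0.0465 in shNC cells, with 11 higher and 8 lower in shNRF2 and 6 higher and 10 lower in shNC. In bulk RNA these are shares of the library, and fewer cells expressing a gene cannot be told apart from less RNA per cell.

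Over all 37 tested members, GNA against DMSO gave 11 higher and 16 lower in shNRF2 cells (edgeR, adjusted p under 0.05), where 33.7% of all genes were called, 16.7% higher and 17% lower. In shNC cells it gave 6 higher and 17 lower, where 30.7% of all genes were called, 14.6% higher and 16.1% lower. Of the members, 14 were lower in both lines, 4 were higher in both, and 5 were called in neither. The share of all genes called the same way in both lines was not counted, so these numbers have no background beside them. The 10 enzymes lower in both lines were HK1, GPI, PFKM, TPI1, GAPDH, PGK1, PGAM1, ENO1, PKM and LDHA, and the 4 genes higher in both were VEGFA, ADM, NDRG1 and P4HA2. The comparisons in the 2 lines share no library, but they come from the same fit and share its estimate of the spread. The GNA libraries lay all above the DMSO libraries for 11 members and all below for 18 in shNRF2, where 44.9% of all genes had no overlap, and for 10 and 17 in shNC, where 40.7% had none.

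The split in shNC cells depended on the scaling. With library totals in place of TMM factors, the median of all genes there shifted to 0.12, against 0.017 with TMM, and the members gave 11 higher and 11 lower; limma on log2(FPKM + 1) gave 11 and 10. Here and below libraries were left out 1 at a time. Leaving out shNC GNA 3 gave 3 higher and 16 lower, and leaving out shNC DMSO 2 gave 3 and 15. Without either of these libraries 3 of the other HIF targets were called higher in shNC cells. The single target called lower in shNC cells, BNIP3, was no longer called without shNC GNA 2, shNC GNA 3 or shNC DMSO 2, in limma on log2(FPKM + 1) or with library totals. Library totals and both limma fits, on log2(FPKM + 1) and log2(FPKM + 0.1), also called PFKL, SLC16A1, VHL, BNIP3L and P4HA1 higher in shNC. They called CA12 and PFKFB4 higher in shNRF2. None of these passed in that line in the main fit with TMM factors.

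Summed counts use all genes of a role without a filter, and GAPDH, PKM and ENO1 had the most counts in the enzyme sum. In the target sum CA12 had the most, at a mean of 275 of 817 CPM in shNRF2 GNA and 251 of 578 in shNRF2 DMSO. In shNC cells CA12 had 555 of 1024 CPM under GNA and 491 of 846 under DMSO. The 17 enzyme genes took 0.724% ± 0.0173 of all counts in shNRF2 GNA and 0.924% ± 0.0277 in shNRF2 DMSO, and 0.807% ± 0.0189 in shNC GNA and 1.00% ± 0.0527 in shNC DMSO (SD, n = 3 each). The 10 other HIF targets took 0.0844% ± 0.00135 in shNRF2 GNA and 0.0572% ± 0.00229 in shNRF2 DMSO, and 0.105% ± 0.00293 in shNC GNA and 0.0806% ± 0.00183 in shNC DMSO. The GNA and DMSO libraries of a line did not overlap in either sum. The sum of the epithelial and A549 marker genes also moved with GNA. It was 2.27% to 2.35% of counts in shNRF2 GNA against 3.43% to 3.65% in shNRF2 DMSO. In shNC cells it was 2.59% to 2.61% under GNA against 3.38% to 3.52% under DMSO. KRT8, KRT18, ALDH1A1 and AKR1B10 had the most counts in this sum. Of the 6 markers tested, GNA lowered 4 and raised 0 in shNRF2 cells, and lowered 4 and raised 1 in shNC cells. The marker that rose in shNC was CDH1, by 0.46 ± 0.080 (log2, edgeR adjusted p = 7.15e-05). The part of these marker genes in the enzyme result was not tested.

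**Figure D2:**
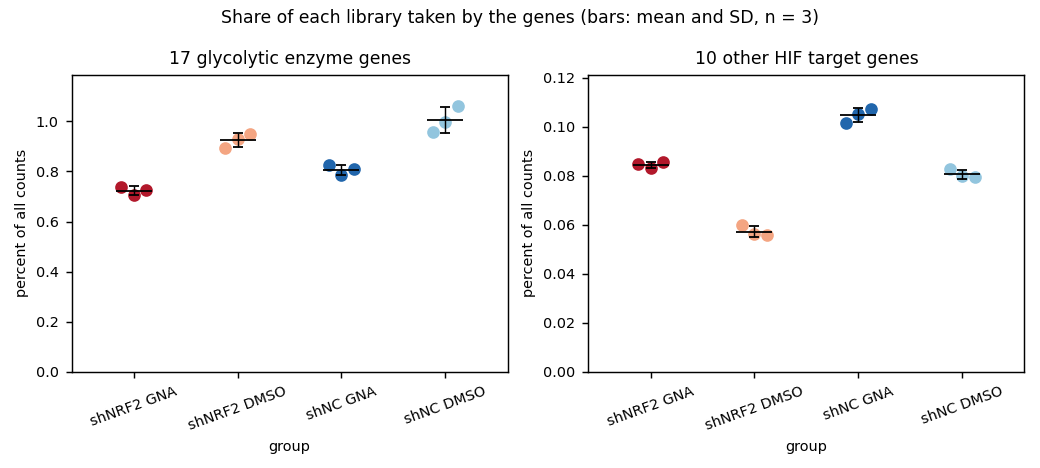
Share of all counts taken by the 17 enzyme genes (left) and by the 10 other HIF target genes (right), among which CA12 has the most counts. Points are libraries, bars the mean and SD of 3; the enzymes stand at 0.724% in shNRF2 GNA and 0.924% in shNRF2 DMSO, and the targets at 0.0844% in shNRF2 GNA and 0.0572% in shNRF2 DMSO.

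**Figure D3:**
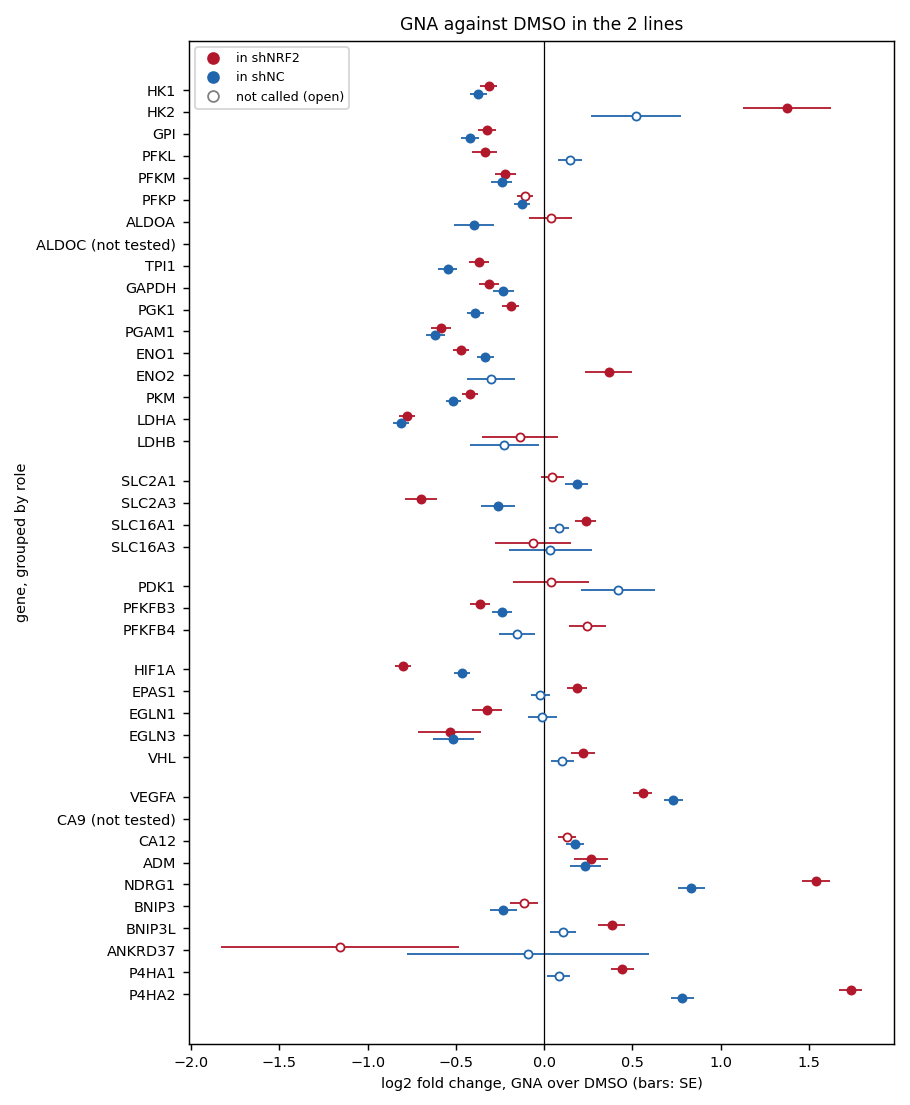
Log2 fold change of GNA over DMSO for each gene, grouped by role, with bars of 1 SE. Filled points passed an adjusted p under 0.05 and open points did not; most enzymes lie left of 0 in both lines, down to -0.81 for LDHA in shNC, and P4HA2 lies farthest right at 1.74 in shNRF2.

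Promoter stretches of 4 genes are shown: LDHA, PGK1 and HIF1A, which fell under GNA in both lines, and P4HA1, which rose in shNRF2 cells. The letters are from RefSeq on GRCh38.p14, 5′ to 3′ on the gene's strand, with every ACGTG or GCGTG on either strand in capitals. On the other strand these cores read CACGT and CACGC, and CACGTG counts on both. Distances are from the RefSeq start, which can lie inside the span of the GENCODE gene, because that span covers all annotated transcripts. Of the 250 bases before the RefSeq start, the longest stretch outside every GENCODE 29 exon is given. The regions are chr11:18394313-18394387 (plus strand) for LDHA, chrX:78103998-78104173 (plus) for PGK1, chr14:61695263-61695512 (plus) for HIF1A and chr10:73096975-73097116 (minus) for P4HA1.
LDHA: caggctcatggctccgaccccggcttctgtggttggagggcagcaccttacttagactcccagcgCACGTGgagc
PGK1: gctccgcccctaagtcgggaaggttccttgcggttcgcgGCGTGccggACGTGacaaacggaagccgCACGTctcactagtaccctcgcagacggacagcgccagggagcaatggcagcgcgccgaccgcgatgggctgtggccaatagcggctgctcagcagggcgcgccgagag
HIF1A: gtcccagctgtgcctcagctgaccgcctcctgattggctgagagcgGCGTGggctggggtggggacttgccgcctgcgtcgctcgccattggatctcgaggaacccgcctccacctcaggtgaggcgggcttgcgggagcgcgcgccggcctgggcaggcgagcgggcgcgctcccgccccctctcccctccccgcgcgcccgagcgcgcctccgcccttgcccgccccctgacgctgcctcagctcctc
P4HA1: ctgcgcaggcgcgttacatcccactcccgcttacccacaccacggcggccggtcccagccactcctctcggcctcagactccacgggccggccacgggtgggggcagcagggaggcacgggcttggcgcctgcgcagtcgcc
The LDHA stretch of 75 bases held 2 matches, both in a CACGTG that starts 185 bases before the RefSeq start. The PGK1 stretch of 176 bases held 3 matches, the HIF1A stretch of 250 bases 1 and the P4HA1 stretch of 142 bases 0. In the full windows, 250 bases before and 50 after the RefSeq start, LDHA held 6, PGK1 4, HIF1A 1 and P4HA1 1. The P4HA1 match therefore lies outside the stretch shown. Over such full windows, 24 of the 33 members with an entry held ACGTG or GCGTG (72.7%), against 48.4% of the 35116 promoters in the table. Among the enzymes it was 12 of 17 (70.6%), and among the other HIF targets with an entry 6 of 7 (85.7%). The antioxidant response element core, TGACNNNGC, was in 5 of the 33 members (15.2%) and in 13.3% of all promoters; the 5 were PFKL, ALDOC, GAPDH, PKM and HIF1A. A match is a string of letters and not a measured binding site, and no match says only that these letters are absent from the stretch or window searched.

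LDHA, the enzyme that reduces pyruvate to lactate, lies on chromosome 11 at 18394388 to 18408425 (GRCh38, GENCODE 29) and showed the largest fall of the tested enzymes in both lines. It had 772, 779 and 763 CPM in shNRF2 GNA and 1258, 1328 and 1379 CPM in shNRF2 DMSO. In shNC cells it had 876, 844 and 837 CPM under GNA and 1408, 1546 and 1530.0 CPM under DMSO. Every GNA library lay below every DMSO library of both lines. The log2 fold change was -0.78 ± 0.046 in shNRF2 (SE, edgeR adjusted p = 2.1e-13) and -0.81 ± 0.046 in shNC (adjusted p = 2.6e-13). The difference between the lines was 0.03 ± 0.064, with a 95% interval of -0.11 to 0.18.

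PGAM1, which moves the phosphate of 3-phosphoglycerate, had 98.0, 88.8 and 90.6 CPM in shNRF2 GNA and 130.3, 143 and 143 CPM in shNRF2 DMSO. In shNC cells PGAM1 had 122, 119 and 118 CPM under GNA and 171, 184 and 193 CPM under DMSO. The GNA libraries were lower without overlap in both lines, at -0.59 ± 0.058 in shNRF2 and -0.62 ± 0.056 in shNC on the log2 scale (edgeR adjusted p = 5.6e-09 and 2.6e-09). TPI1, which interconverts the triose phosphates, had 331, 338 and 337 CPM in shNRF2 GNA and 416, 435 and 449 CPM in shNRF2 DMSO. TPI1 had 447, 390.2 and 388 CPM in shNC GNA and 569.9, 573 and 646 CPM in shNC DMSO. It too was lower without overlap, with a log2 fold change of -0.37 ± 0.056 in shNRF2 and -0.55 ± 0.055 in shNC (edgeR adjusted p = 6.6e-06 and 1.6e-08).

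PGK1, the kinase that makes the first ATP of the pathway, had 217, 215 and 208 CPM in shNRF2 GNA and 235, 246 and 249 CPM in shNRF2 DMSO. It had 239, 238 and 246 CPM in shNC GNA and 303, 335 and 310.2 CPM in shNC DMSO. The groups were apart in both lines, at -0.19 ± 0.048 in shNRF2 and -0.39 ± 0.048 in shNC (log2, edgeR adjusted p = 0.0031 and 3.9e-07). The difference of 0.20 ± 0.068 between the lines was not called by edgeR (adjusted p = 0.074). It was called by DESeq2 (adjusted p = 0.0425) and by edgeR without shNC DMSO 1 (adjusted p = 0.0283). ENO1, the main enolase gene by level, had 1438, 1385 and 1399 CPM in shNRF2 GNA and 1874, 1951 and 2023 CPM in shNRF2 DMSO. It had 1512, 1502 and 1561 CPM in shNC GNA and 1834, 1859.7 and 2067 CPM in shNC DMSO, and fell in both lines, at -0.47 ± 0.046 in shNRF2 and -0.33 ± 0.046 in shNC (log2).

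The remaining enzymes that fell in both lines had log2 fold changes of -0.42 in shNRF2 and -0.51 in shNC for PKM, -0.32 and -0.42 for the glucose phosphate isomerase GPI, and -0.31 and -0.37 for HK1, which traps glucose in the cell. GAPDH changed by -0.31 in shNRF2 and -0.23 in shNC, and the muscle-type phosphofructokinase PFKM by -0.22 and -0.24. The shNC calls of GAPDH and PFKM were lost in limma on log2(FPKM + 1) and with library totals (log2 fold change with totals -0.13 and -0.14), and PFKM's call in shNRF2 was lost without shNRF2 GNA 3 or in both limma fits (adjusted p = 0.057 to 0.061). PFKP was called in shNC at -0.13 ± 0.045 (edgeR adjusted p = 0.034), and that call was lost without shNC GNA 1 or 2 or shNC DMSO 2 or 3, with library totals, with upper-quartile factors, with no low-count filter, with only the groups compared in the fit or in both limma fits (adjusted p = 0.06 to 0.73). With library totals it was -0.02 there. PFKP stood at -0.11 ± 0.045 in shNRF2 (adjusted p = 0.065), which DESeq2 called (adjusted p = 0.0312). The pseudogene copies of GAPDH listed by symbol, 65 of them, held 0.614% as many counts as GAPDH itself. About 8.58% of the exon bases of PFKM lie opposite SENP1, and whether the counting used strand is not stated.

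A few enzymes did not follow. HK2, the hexokinase that HIF induces and that is scarce in these cells, had 3.92, 3.74 and 4.56 CPM in shNRF2 GNA and 1.28, 1.38 and 2.07 CPM in shNRF2 DMSO. HK2 had 2.52, 2.04 and 2.76 CPM in shNC GNA and 1.45, 1.66 and 1.98 CPM in shNC DMSO. The GNA libraries were higher without overlap in both lines. The rise was called in shNRF2 at 1.38 ± 0.25 and not in shNC at 0.52 ± 0.26 (log2, edgeR adjusted p = 7.3e-05 and 0.13), and the difference between the lines was 0.85 ± 0.36 with a 95% interval of 0.03 to 1.68 and was not called (adjusted p = 0.17).

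ENO2, the neuron-type enolase, had 13.1, 14.6 and 11.3 CPM in shNRF2 GNA and 8.86, 11.7 and 9.74 CPM in shNRF2 DMSO. In shNC cells ENO2 had 9.43, 9.38 and 11.6 CPM under GNA and 14.1, 11.8 and 11.7 CPM under DMSO. GNA was the higher treatment in shNRF2 by 0.37 ± 0.14 (log2, edgeR adjusted p = 0.038), and the shNC value was -0.30 ± 0.13 (adjusted p = 0.091). The shNRF2 call was lost without shNRF2 GNA 1 or 2 or shNRF2 DMSO 1 or 3 or in DESeq2 (adjusted p = 0.056 to 0.19). The treatments overlapped in shNRF2, where 1 GNA library lay within the DMSO range, and were apart in shNC.

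PFKL, the liver-type phosphofructokinase, had 32.6, 33.1 and 33.8 CPM in shNRF2 GNA and 44.1, 41.6 and 39.9 CPM in shNRF2 DMSO, a change of -0.34 ± 0.069 (log2, edgeR adjusted p = 0.00034). It had 38.4, 36.3 and 37.6 CPM in shNC GNA and 32.7, 34.4 and 34.3 CPM in shNC DMSO, with no overlap and a log2 fold change of 0.15 ± 0.069 that was not called (adjusted p = 0.11). With library totals the shNC rise of 0.25 was called (adjusted p = 0.0061). ALDOA, which splits fructose 1,6-bisphosphate, had 8.75, 11.0 and 11.8 CPM in shNRF2 GNA and 11.0, 9.26 and 10.6 in shNRF2 DMSO. It had 13.03, 12.5 and 14.2 CPM in shNC GNA and 16.6, 17.7 and 18.0 in shNC DMSO, a change of -0.40 ± 0.11 (adjusted p = 0.0078) that limma on log2(FPKM + 1) did not call (adjusted p = 0.056). In shNRF2 ALDOA overlapped between treatments at 0.04 ± 0.12, and the difference between the lines was 0.44 ± 0.17 (adjusted p = 0.12). LDHB, which favours the oxidation of lactate, was called in neither line at -0.14 ± 0.21 in shNRF2 and -0.23 ± 0.20 in shNC.

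Among the carriers, SLC2A1 (GLUT1), the basal glucose carrier, had 91.1, 92.7 and 94.1 CPM in shNRF2 GNA and 100.4, 87.4 and 80.8 CPM in shNRF2 DMSO. SLC2A1 had 127, 131 and 141 CPM in shNC GNA and 114, 113 and 124 CPM in shNC DMSO. The treatments overlapped in shNRF2, with a log2 fold change of 0.05 ± 0.067, and were apart in shNC, with GNA higher by 0.18 ± 0.065 (edgeR adjusted p = 0.03). That call was lost without shNC GNA 2 or 3 or shNC DMSO 1 or 2 (adjusted p = 0.053 to 0.17).

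SLC2A3 (GLUT3), a glucose carrier of high affinity, had 19.2, 20.6 and 21.5 CPM in shNRF2 GNA and 32.9, 34.8 and 32.0 CPM in shNRF2 DMSO. It had 15.4, 17.1 and 17.1 CPM in shNC GNA and 22.9, 18.8 and 17.9 CPM in shNC DMSO. GNA was lower without overlap in both lines, at -0.70 ± 0.092 in shNRF2 and -0.26 ± 0.098 in shNC (log2, edgeR adjusted p = 8.7e-07 and 0.044). The shNC call was lost without shNRF2 GNA 2 or shNRF2 DMSO 1 or shNC GNA 1 or 2 or 3 or shNC DMSO 1, with library totals, with upper-quartile factors, with no low-count filter, with only the groups compared in the fit, with the replicate number as a block, in DESeq2 or in both limma fits (adjusted p = 0.0502 to 0.3).

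SLC16A1 (MCT1), a lactate carrier, had 94.3, 86.3 and 87.0 CPM in shNRF2 GNA and 75.4, 78.1 and 73.7 in shNRF2 DMSO, a rise of 0.24 ± 0.058 (log2, edgeR adjusted p = 0.0024). It had 93.5, 97.1 and 98.8 CPM in shNC GNA and 93.3, 94.4 and 85.7 in shNC DMSO, which was not called (0.08 ± 0.057). SLC16A3 (MCT4), the HIF-induced lactate exporter, had 6.94, 4.75 and 6.53 CPM in shNRF2 GNA and 5.27, 8.35 and 5.44 in shNRF2 DMSO. It had 3.96, 5.18 and 2.70 CPM in shNC GNA and 3.45, 3.62 and 4.49 in shNC DMSO, and neither line was called under GNA.

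Of the kinases, PFKFB3, which makes the phosphofructokinase activator fructose 2,6-bisphosphate, fell in both lines. It had 101, 105 and 109 CPM in shNRF2 GNA and 134, 133 and 138 in shNRF2 DMSO, and 111, 120.4 and 129.7 in shNC GNA and 141, 137 and 148 in shNC DMSO. The log2 fold change was -0.36 ± 0.058 in shNRF2 and -0.24 ± 0.057 in shNC (edgeR adjusted p = 1.3e-05 and 0.0019), and the shNC call was lost in limma on log2(FPKM + 1) and with library totals (-0.14 with totals, adjusted p = 0.067). Its relative PFKFB4 and PDK1, which holds pyruvate back from the mitochondrion, were called in neither line. PFKFB4 stood at 0.24 ± 0.10 in shNRF2 and -0.15 ± 0.10 in shNC, and PDK1 at 0.04 ± 0.22 in shNRF2 and 0.42 ± 0.21 in shNC.

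HIF1A, on chromosome 14 at 61695513 to 61748259 (GRCh38, GENCODE 29), fell under GNA in both lines. It had 286, 289.7 and 289 CPM in shNRF2 GNA and 478, 500.2 and 525 CPM in shNRF2 DMSO. In shNC cells it had 215, 207 and 206 CPM under GNA and 290.2, 283 and 294 CPM under DMSO. No library of one treatment overlapped the other within a line, and the shNRF2 GNA libraries lay at the level of the shNC DMSO libraries. The log2 fold change was -0.80 ± 0.046 in shNRF2 and -0.46 ± 0.046 in shNC (edgeR adjusted p = 1.1e-13 and 1.2e-08).

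EPAS1, which encodes HIF2 alpha, had 460.1, 479.9 and 485 CPM in shNRF2 GNA and 443, 419 and 389 CPM in shNRF2 DMSO. It had 312, 356 and 359.7 CPM in shNC GNA and 334, 356 and 353 CPM in shNC DMSO. In shNRF2 GNA was the higher by 0.19 ± 0.055 (log2, edgeR adjusted p = 0.0088), a call lost without shNRF2 DMSO 3 (adjusted p = 0.072). In shNC the treatments overlapped at -0.02 ± 0.055, and the difference between the lines was 0.21 ± 0.078 (adjusted p = 0.11).

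EGLN3, a prolyl hydroxylase that HIF itself induces, had 1.96, 2.34 and 2.77 CPM in shNRF2 GNA and 3.66, 3.14 and 3.53 CPM in shNRF2 DMSO. It had 11.9, 11.9 and 12.95 CPM in shNC GNA and 16.7, 18.0 and 17.8 CPM in shNC DMSO. GNA was lower without overlap in both lines, at -0.54 ± 0.18 in shNRF2 and -0.51 ± 0.12 in shNC (log2, edgeR adjusted p = 0.023 and 0.0014). The shNRF2 call rests on 26 to 57 counts per library and was lost without shNRF2 GNA 1 or 2 or shNRF2 DMSO 1 or 3, with no low-count filter, with only the groups compared in the fit or in limma on log2(FPKM + 1) (adjusted p = 0.0547 to 0.1).

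EGLN1, the main hydroxylase under normal oxygen, had 43.4, 45.2 and 37.7 CPM in shNRF2 GNA and 52.3, 54.4 and 51.1 in shNRF2 DMSO, a change of -0.32 ± 0.084 (log2, edgeR adjusted p = 0.0035) that limma on log2(FPKM + 1) did not call (adjusted p = 0.0544). It had 40.7, 48.4 and 50.6 CPM in shNC GNA and 51.8, 43.1 and 46.2 in shNC DMSO, at -0.01 ± 0.083. VHL, the substrate receptor of the ligase that removes HIF, had 52.0, 47.4 and 46.9 CPM in shNRF2 GNA and 40.5, 42.0 and 42.9 in shNRF2 DMSO, a rise of 0.22 ± 0.067 (adjusted p = 0.011) that was lost without shNRF2 GNA 1 or shNRF2 DMSO 1 (adjusted p = 0.0533 to 0.08). It had 46.6, 44.6 and 45.9 CPM in shNC GNA and 41.3, 44.5 and 41.6 in shNC DMSO, at 0.10 ± 0.067.

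Among the 9 other HIF targets tested as members every called change under GNA was a rise, apart from BNIP3 in shNC cells; the 30 further targets gave calls both ways. VEGFA, the growth factor for blood vessels, had 156, 159 and 166 CPM in shNRF2 GNA and 111, 109.9 and 105 CPM in shNRF2 DMSO. It had 146, 146 and 147 CPM in shNC GNA and 92.4, 88.6 and 83.4 CPM in shNC DMSO. All GNA libraries lay above all DMSO libraries, with a log2 fold change of 0.56 ± 0.052 in shNRF2 and 0.73 ± 0.053 in shNC (edgeR adjusted p = 2.1e-09 and 2.4e-11).

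P4HA2, a subunit of the prolyl hydroxylase that modifies collagen, lies on chromosome 5 and had 131, 128 and 129 CPM in shNRF2 GNA and 42.5, 37.7 and 36.0 CPM in shNRF2 DMSO. It had 72.8, 74.8 and 75.9 CPM in shNC GNA and 45.1, 39.5 and 45.4 CPM in shNC DMSO. The rise was 1.74 ± 0.067 in shNRF2 and 0.78 ± 0.067 in shNC (log2, edgeR adjusted p = 3.3e-17 and 6.8e-10), without overlap in either line. NDRG1, a stress and differentiation gene that HIF induces, had 72.7, 72.2 and 66.9 CPM in shNRF2 GNA and 25.6, 21.4 and 25.7 CPM in shNRF2 DMSO. It had 48.2, 55.1 and 54.9 CPM in shNC GNA and 30.5, 28.4 and 29.96 CPM in shNC DMSO, with rises of 1.54 ± 0.079 in shNRF2 and 0.83 ± 0.077 in shNC (adjusted p = 1.2e-14 and 3.0e-09).

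**Figure D4:**
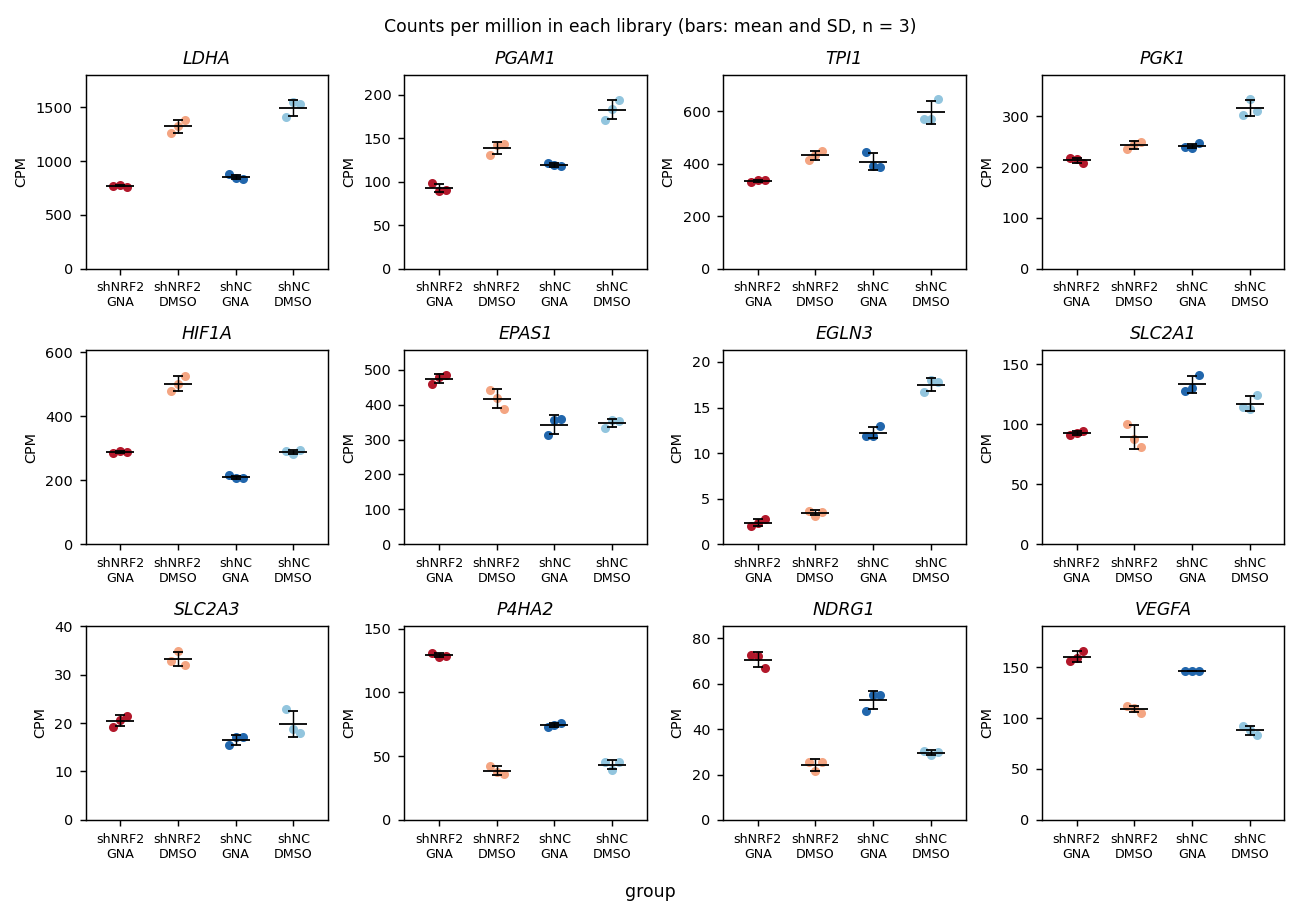
CPM of 12 members in each library, with the mean and SD of 3 libraries per group, on axes that start at 0. LDHA, PGAM1, TPI1, PGK1 and HIF1A are lower and VEGFA, NDRG1 and P4HA2 higher under GNA in both lines, and EGLN3 is lower in shNRF2 than in shNC under both treatments.

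ADM, the vasodilator peptide adrenomedullin, had 19.8, 19.5 and 21.5 CPM in shNRF2 GNA and 19.1, 14.2 and 17.1 CPM in shNRF2 DMSO. ADM had 30.8, 32.0 and 33.95 CPM in shNC GNA and 27.1, 27.4 and 27.8 CPM in shNC DMSO. The rises of 0.27 ± 0.098 in shNRF2 and 0.23 ± 0.088 in shNC were close to the threshold (log2, edgeR adjusted p = 0.037 and 0.0451). The shNRF2 call was lost without shNRF2 GNA 1 or 3 or shNRF2 DMSO 2 or 3, with no low-count filter or in DESeq2 (adjusted p = 0.056 to 0.26), and the shNC call without shNRF2 GNA 1 or 2 or 3 or shNRF2 DMSO 3 or shNC GNA 2 or 3 or shNC DMSO 1 or 2 or 3, with no low-count filter or in DESeq2 (adjusted p = 0.0502 to 0.17).

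CA12, a membrane carbonic anhydrase that handles acid export, had 273, 268 and 285 CPM in shNRF2 GNA and 271, 245 and 238 in shNRF2 DMSO. This was not called in the main fit (0.13 ± 0.052, edgeR adjusted p = 0.0515). CA12 was called higher in shNRF2 in 10 of 22 alternative runs. Among them were upper-quartile factors and only the groups compared in the fit (edgeR adjusted p = 0.0225 and 0.0309). It had 531, 559.6 and 573 CPM in shNC GNA and 508, 474 and 492 in shNC DMSO, a rise of 0.18 ± 0.05 (adjusted p = 0.0088) that was lost without shNC GNA 3 or shNC DMSO 2 (adjusted p = 0.0502 to 0.051). P4HA1, the other catalytic collagen hydroxylase subunit of the set, rose in shNRF2 by 0.44 ± 0.066 and stood at 0.08 ± 0.064 in shNC. BNIP3L and BNIP3 encode mitophagy receptors. BNIP3L rose in shNRF2 by 0.38 ± 0.075 and stood at 0.11 ± 0.073 in shNC. BNIP3 had 53.2, 53.8 and 50.2 CPM in shNRF2 GNA and 57.3, 54.8 and 57.7 in shNRF2 DMSO, and 59.8, 55.1 and 54.3 in shNC GNA and 59.0, 77.3 and 61.9 in shNC DMSO; it fell in shNC at -0.23 ± 0.077 (adjusted p = 0.024) and stood at -0.11 ± 0.079 in shNRF2. The BNIP3 call was lost without shNC GNA 2 or 3 or shNC DMSO 2, with library totals, with only the groups compared in the fit or in both limma fits (adjusted p = 0.0515 to 0.32).

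CA9, the carbonic anhydrase often used as a marker of hypoxia, was near absent. Its counts were 0, 3 and 4 in shNRF2 GNA, 5, 0 and 2 in shNRF2 DMSO, 1, 3 and 2 in shNC GNA and 1, 9 and 4 in shNC DMSO. A library at 0 allows up to 3 counts, which is 0.226 CPM in shNRF2 GNA 1 and 0.23 CPM in shNRF2 DMSO 2, and this limit covers counting error only. ANKRD37, another gene that hypoxia raises strongly, had 75 counts in all and was called in no comparison. Of the exon bases of CA9, 38.5% lie opposite ARHGEF39, and of those of ANKRD37, 35.2% lie opposite UFSP2.

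The NRF2 hairpin was set against the control hairpin under each treatment. Most enzymes that were called were lower in shNRF2, while the HIF alpha subunit genes were higher and the feedback hydroxylase EGLN3 was lower. Under GNA, 7 of the 37 members were higher and 13 lower in shNRF2 than in shNC (edgeR, adjusted p under 0.05), where 26.1% of all genes were called, 12.8% higher and 13.3% lower. Under DMSO 6 were higher and 18 lower, where 35.2% of all genes were called, 16.8% higher and 18.3% lower. The shNRF2 libraries lay all above the shNC libraries for 9 members and all below for 16 under GNA, where 40.9% of all genes had no overlap, and for 6 and 20 under DMSO, where 43.2% had none. Of the 16 enzymes 8 were lower and 1 was higher under each treatment. Of the 9 other targets, 2 were lower and 2 higher under GNA, and 6 were lower and 1 was higher under DMSO. The number of enzymes lower under GNA was 6 without shNC GNA 1 and 11 without shNC DMSO 1. The median log2 fold change of the enzymes was -0.18 under GNA and -0.30 under DMSO, and that of the other targets -0.029 under GNA and -0.29 under DMSO, beside 0.013 under GNA and 0.011 under DMSO over all genes tested.

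**Figure D5:**
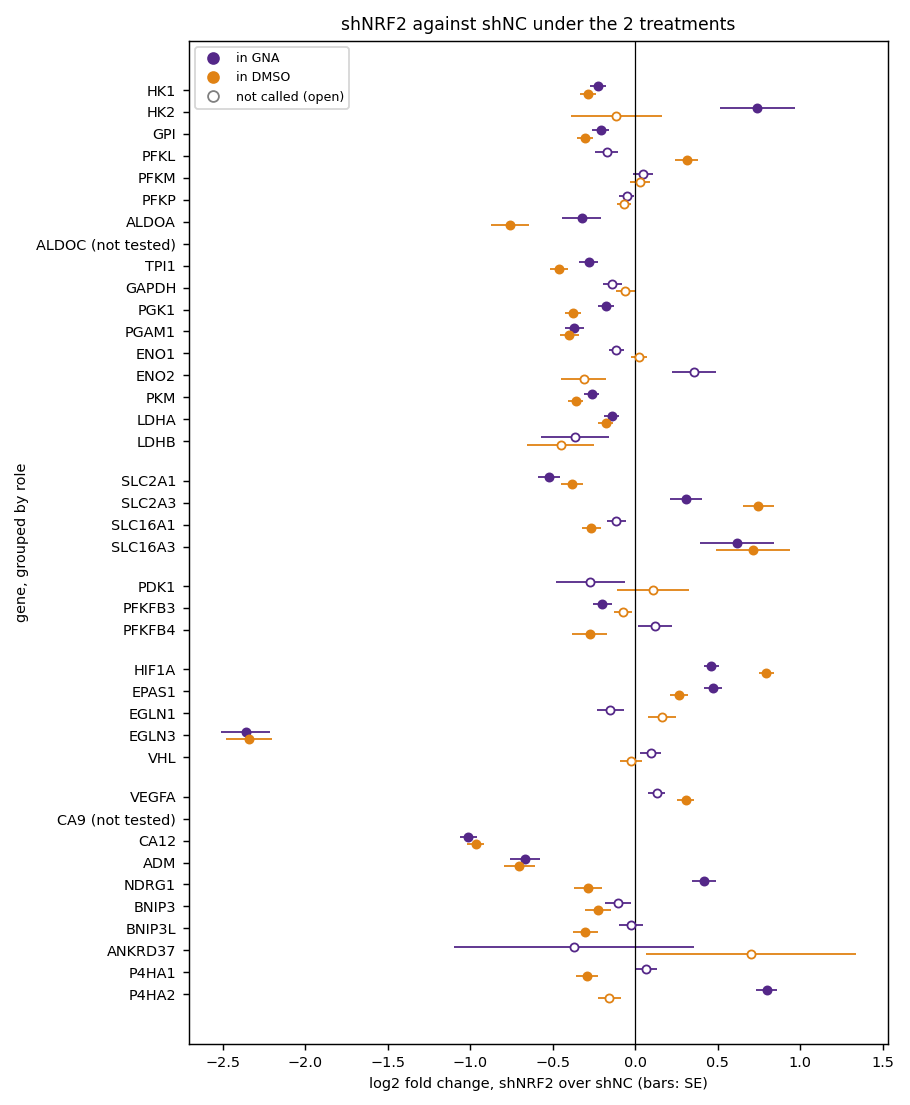
Log2 fold change of shNRF2 over shNC for each gene under GNA and under DMSO, with bars of 1 SE; filled points passed an adjusted p under 0.05. EGLN3 lies farthest left, at -2.36 under GNA and -2.34 under DMSO, and HIF1A, EPAS1, SLC2A3 and SLC16A3 lie right of 0 under both treatments.

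EGLN3 was the member with the largest difference between the lines, at -2.36 ± 0.15 under GNA and -2.34 ± 0.14 under DMSO (log2, edgeR adjusted p = 2.4e-12 and 5.3e-13). Its levels were 2.36 ± 0.405 CPM in shNRF2 GNA and 12.2 ± 0.614 in shNC GNA, and 3.44 ± 0.271 in shNRF2 DMSO and 17.5 ± 0.709 in shNC DMSO (SD, n = 3 each). HIF1A was higher in shNRF2, by 0.46 ± 0.046 under GNA and 0.79 ± 0.046 under DMSO (adjusted p = 1.5e-08 and 2.2e-13). EPAS1 was higher too, by 0.47 ± 0.055 under GNA and 0.26 ± 0.055 under DMSO (adjusted p = 2.0e-07 and 0.00045). EGLN1 and VHL were called under neither treatment in the main fit. Under DMSO, EGLN1 passed as higher with library totals or without shNC DMSO 1 (edgeR adjusted p = 0.0462 and 0.047). Under GNA, EGLN1 passed as lower, at -0.24, without shNC GNA 1 (adjusted p = 0.0458). The labels give 1 hairpin line per kind, so a difference that follows NRF2 cannot be told apart from one that follows the line.

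Among the enzymes, HK1, GPI, ALDOA, TPI1, PGK1, PGAM1, PKM and LDHA were lower in shNRF2 under both treatments. TPI1 differed by -0.28 ± 0.056 under GNA and -0.46 ± 0.055 under DMSO (log2, edgeR adjusted p = 0.00032 and 2.3e-07), and PGAM1 by -0.37 ± 0.058 and -0.40 ± 0.056 (adjusted p = 1.9e-05 and 2.7e-06). ALDOA differed by -0.32 ± 0.12 under GNA and -0.76 ± 0.12 under DMSO (adjusted p = 0.043 and 1.0e-05), and its GNA call was lost without shNRF2 GNA 1 or 2 or shNC GNA 1 or 2 or 3 or shNC DMSO 3, with library totals, with upper-quartile factors, with no low-count filter, in DESeq2 or in both limma fits (adjusted p = 0.0512 to 0.23). For LDHA the difference was small, at -0.14 under GNA and -0.18 under DMSO, and the GNA call was lost without shNRF2 GNA 1 or 3 or shNC GNA 1 (adjusted p = 0.06 to 0.079). HK2 was the enzyme higher in shNRF2 under GNA, by 0.74 ± 0.23 (adjusted p = 0.017), a call lost without shNRF2 GNA 3 or shNC GNA 2 (adjusted p = 0.084 to 0.087). PFKL was the enzyme higher in shNRF2 under DMSO, by 0.31 ± 0.069 (adjusted p = 0.00084), while GNA gave -0.17 ± 0.069. GAPDH, ENO1, ENO2, PFKM, PFKP and LDHB were called under neither treatment. With only the groups compared in the fit, GAPDH and ENO1 were called lower and ENO2 higher under GNA (edgeR adjusted p = 0.0297, 0.0132 and 0.049). Of 22 alternative runs under GNA, 5 called GAPDH, 5 called ENO1 and 8 called ENO2. Under DMSO, ENO2 was called lower without shNRF2 DMSO 2 and LDHB lower without shNC DMSO 1 (edgeR adjusted p = 0.0317 and 0.0454).

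The glucose carriers went opposite ways between the lines. SLC2A1 was lower in shNRF2, at -0.52 ± 0.065 under GNA and -0.39 ± 0.066 under DMSO (log2, edgeR adjusted p = 6.1e-07 and 4.3e-05). SLC2A3 was higher in shNRF2, by 0.31 ± 0.097 under GNA and 0.75 ± 0.092 under DMSO (adjusted p = 0.02 and 4.1e-07), and its GNA call was lost without shNRF2 GNA 2 or 3 or shNC GNA 1 (adjusted p = 0.0524 to 0.088). On the FPKM scale SLC2A3 made up 16.7% ± 0.555 of both carriers in shNRF2 GNA and 10.2% ± 0.426 in shNC GNA, and 25.4% ± 2.07 in shNRF2 DMSO and 13.4% ± 1.92 in shNC DMSO (SD, n = 3 each). SLC16A3, which had 895 counts in all, was higher in shNRF2 by 0.62 ± 0.22 under GNA and 0.71 ± 0.23 under DMSO (adjusted p = 0.042 and 0.015). The GNA call of SLC16A3 was lost without shNRF2 GNA 1 or 3 or shNC GNA 1 or 3 or in both limma fits (adjusted p = 0.083 to 0.23), and the DMSO call without shNRF2 DMSO 2 or shNC DMSO 1 or 2 or in limma on log2(FPKM + 0.1) (adjusted p = 0.0505 to 0.14). Part of its exons, 5.36% of the bases, lies opposite CSNK1D, which had 16891 counts. SLC16A1 was lower in shNRF2 under DMSO, at -0.27 ± 0.058 (adjusted p = 0.00071), and stood at -0.11 ± 0.057 under GNA.

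Of the kinases, PFKFB3 was lower in shNRF2 under GNA at -0.20 ± 0.058 (log2, edgeR adjusted p = 0.011), a call lost without shNRF2 GNA 1 or shNC GNA 3 (adjusted p = 0.067 to 0.1). PFKFB4 had 15.1, 13.7 and 14.3 CPM in shNRF2 DMSO and 19.4, 16.6 and 16.3 CPM in shNC DMSO. Its difference of -0.28 ± 0.10 was near the threshold (adjusted p = 0.04) and was lost without shNRF2 DMSO 1 or 2 or 3 or shNC DMSO 1, with library totals, with upper-quartile factors, with no low-count filter, with only the groups compared in the fit, in DESeq2 or in both limma fits (adjusted p = 0.051 to 0.16). PDK1 was called under neither treatment.

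CA12 and ADM were the other HIF targets that differed most under DMSO, and both were lower in shNRF2 without overlap under each treatment. CA12 differed by -1.01 ± 0.051 under GNA and -0.97 ± 0.051 under DMSO (log2, edgeR adjusted p = 1.6e-14 and 4.0e-14), which is about 49.6% and 51.2% of the shNC level. ADM differed by -0.67 ± 0.091 under GNA and -0.70 ± 0.095 under DMSO (adjusted p = 2.3e-06 and 1.5e-06). VEGFA was higher in shNRF2 under DMSO, by 0.31 ± 0.053 (adjusted p = 5.7e-05), and stood at 0.13 ± 0.051 under GNA (adjusted p = 0.061). The GNA difference passed in 3 of 22 alternative runs. These were library totals, upper-quartile factors and only the groups compared in the fit (edgeR adjusted p = 0.0367, 0.0355 and 0.0453). NDRG1 changed sign: it was higher in shNRF2 under GNA by 0.42 ± 0.072 and lower under DMSO at -0.29 ± 0.083 (adjusted p = 7.2e-05 and 0.0084), and the DMSO call was lost without shNRF2 DMSO 2 or in both limma fits (adjusted p = 0.064 to 0.09). P4HA2 was higher under GNA by 0.80 ± 0.063 (adjusted p = 1.6e-10) and stood at -0.16 ± 0.07 under DMSO. The other targets lower under DMSO were P4HA1 (-0.29), BNIP3L (-0.30) and BNIP3 (-0.22), and the BNIP3 call was lost without shNRF2 DMSO 1 or 2 or shNC DMSO 2, with library totals or in both limma fits (adjusted p = 0.0531 to 0.34).

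Whether the response to GNA differed between the lines was tested directly as the difference of the log2 fold changes, shNRF2 minus shNC. It was called for 7 of the 37 members, 4 higher and 3 lower, where 6.82% of all genes were called, 3.58% higher and 3.24% lower. Leaving out shNRF2 DMSO 1 left 4, of which 2 were higher. Of the 9 other HIF targets tested 3 were called, all higher, and of the 16 enzymes 1 was higher and 1 lower. The median difference of the targets was 0.12, that of the enzymes 0.073 and that of all genes -0.0048.

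P4HA2 had the largest difference, 0.95 ± 0.094, with a rise in both lines that was greater in shNRF2 cells (edgeR adjusted p = 1.1e-07). For NDRG1 it was 0.70 ± 0.11 (adjusted p = 0.00014) and for P4HA1 0.36 ± 0.092 (adjusted p = 0.015), whose call was lost without shNRF2 DMSO 1 or in both limma fits (adjusted p = 0.0502 to 0.061). HIF1A had -0.33 ± 0.065 (adjusted p = 0.0018), a deeper fall in shNRF2 cells, in which its DMSO level was also the higher. PFKL had -0.48 ± 0.098 (adjusted p = 0.0026), falling in shNRF2 and not called in shNC. ENO2 had 0.67 ± 0.19 (adjusted p = 0.033), lost without shNRF2 GNA 1 or 2 or shNRF2 DMSO 1 or 3 or shNC GNA 1 or 2 or shNC DMSO 1 or in both limma fits (adjusted p = 0.058 to 0.11). SLC2A3 had -0.44 ± 0.13 (adjusted p = 0.0473), lost without shNRF2 GNA 1 or 2 or 3 or shNRF2 DMSO 1 or 2 or 3 or shNC GNA 2 or 3 or shNC DMSO 2 or 3, with no low-count filter, with the replicate number as a block or in both limma fits (adjusted p = 0.0512 to 0.14).

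Further genes of the same pathways were counted from lists of their own, with named genes taken by the largest called changes. Of 11 other glycolysis and gluconeogenesis genes tested, GNA raised 3 and lowered 1 in shNRF2 cells, and raised 2 and lowered 3 in shNC cells. The background shares for this and the lists that follow are those of the whole table, 16.7% called up and 17% called down in shNRF2, and 14.6% up and 16.1% down in shNC. PCK2, the mitochondrial enzyme that makes phosphoenolpyruvate, averaged 48.6 CPM in shNRF2 GNA and 18.9 in shNRF2 DMSO, and 40.0 in shNC GNA and 9.33 in shNC DMSO. It rose by 1.36 ± 0.089 in shNRF2 and 2.10 ± 0.098 in shNC (log2, edgeR adjusted p = 1.9e-12 and 6.6e-15). HKDC1, a hexokinase-domain gene, averaged 365 CPM in shNRF2 GNA and 158 in shNRF2 DMSO, and 308 in shNC GNA and 216 in shNC DMSO, a rise of 1.21 ± 0.054 in shNRF2 and 0.51 ± 0.053 in shNC. TIGAR (-0.50), BPGM (-0.46) and PGM1 (-0.22) fell in shNC, and ENO3 (-0.55) fell and G6PC3 (0.36) rose in shNRF2.

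Of 14 genes for the entry of pyruvate into the mitochondrion, GNA lowered 6 in shNRF2 and 7 in shNC cells, and the others were not called. PDK4, a brake on pyruvate dehydrogenase, averaged 222 CPM in shNRF2 GNA and 367 in shNRF2 DMSO, a change of -0.73 ± 0.054 (log2, edgeR adjusted p = 2.6e-11). The pyruvate carboxylase gene PC changed by -0.91 ± 0.10 in shNRF2 and -0.41 ± 0.10 in shNC, PDK2 by -0.57 and -0.42, and PDHB by -0.44 in shNC. Of 8 other carriers and their chaperone, 1 rose and 3 fell in shNRF2, and 1 was called in shNC. The one that rose in each was SLC16A8 (1.29 in shNRF2 and 1.57 in shNC), at no more than 2.12 CPM by group mean, and the 3 that fell in shNRF2 were SLC16A7 (-0.43), SLC2A13 (-0.32) and the chaperone BSG (-0.19).

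Of 11 other components of the HIF pathway, 1 rose and 1 fell in shNRF2, and 1 rose and 2 fell in shNC. ARNT2, a partner of the alpha subunits, rose by 0.70 ± 0.13 in shNRF2 and 0.50 ± 0.12 in shNC (log2, edgeR adjusted p = 0.0001 and 0.0024). CITED2 (-0.40), which competes with HIF for its coactivators, fell in shNRF2, and ELOB (-0.31) and CUL2 (-0.21), both parts of the VHL ligase, fell in shNC. Of 30 further HIF targets, 11 rose and 8 fell in shNRF2, and 6 rose and 10 fell in shNC. HMOX1, the heme oxygenase that NRF2 also controls, rose by 3.00 ± 0.084 in shNRF2 and 1.81 ± 0.073 in shNC, and STC2 by 1.20 ± 0.067 and 1.79 ± 0.068 (adjusted p = 7.4e-14 and 7.5e-17). STC1 changed by -0.89 ± 0.12 in shNRF2 and -1.14 ± 0.14 in shNC, and HILPDA, a lipid droplet gene, by -0.94 ± 0.24 and -0.81 ± 0.22. FUT11 (-0.56) fell in shNC, and PLIN2 (1.22) rose and FAM162A (-0.46) fell in shNRF2.

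Of the 5 tested genes for glucose-sensing and MYC transcription factors, 1 rose and 1 fell in shNRF2, and 2 rose and 2 fell in shNC. MLXIPL (ChREBP), which responds to glucose, averaged 26.2 CPM in shNRF2 GNA and 17.9 in shNRF2 DMSO, and 17.8 in shNC GNA and 8.53 in shNC DMSO. It rose by 0.55 ± 0.098 in shNRF2 and 1.06 ± 0.11 in shNC (log2, edgeR adjusted p = 7.4e-05 and 2.2e-08). MYC, which drives many glycolytic genes, averaged 48.7 CPM in shNRF2 GNA and 61.4 in shNRF2 DMSO, and 57.9 in shNC GNA and 71.7 in shNC DMSO. It changed by -0.34 ± 0.07 in shNRF2 and -0.31 ± 0.068 in shNC (adjusted p = 0.00042 and 0.001). MLXIP (0.23) rose and MLX (-0.24) fell in shNC.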

How the data were processed

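RNA of 12 libraries was sequenced on the Illumina platform, per the labels' protocols. The authors deposited raw counts and FPKM values of 61510 genes. The submitters' processing notes name GRCh38 and DESeq2 without a role; aligner, counter, annotation and strand setting: not given in the sources used here. For 39 of 39 members the deposited FPKM was the count divided by library total and 1 length per gene (relative tolerance 0.001). The study's single-cell data were not analysed here.

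Counts were filtered with filterByExpr (minimum count 10, minimum total 15; 15653 genes with 99.8% of counts) and tested with edgeR 4.0.16 (TMM, glmQLFit, glmQLFTest, R 4.3.3) in 1 fit with a coefficient for each group and 8 residual degrees of freedom. P-values were Benjamini-Hochberg adjusted over all genes tested, with calls under 0.05. SE is the size of the log2 fold change over the square root of F. CPM use TMM-scaled totals. With 3 libraries a side an exact permutation test cannot go below p = 0.1.

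The members and lists were chosen with earlier results of these data known, so no list was tested as a set. Values per library are given for 8 fixed genes (HIF1A, EPAS1, SLC2A1, HK2, LDHA, PGK1, CA9, VEGFA) and, per role, for up to 3 called members each way in either GNA comparison and up to 2 in the others, at 5 CPM or more; further lists name up to 3 each way, of which 1 gene is not reported here. Positions are from GENCODE 29 and promoters from RefSeq (33 of 39 members). The fit was tested on simulated data. Alternatives were RLE and upper-quartile factors, library totals, no filter, 1 CPM in 3 libraries, DESeq2 1.42.0, limma 3.58.1 on log2(FPKM + 1) and log2(FPKM + 0.1), the replicate block, only the groups compared, and each library left out.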

Additional observations from a re-analysis of the deposited data

Results flagged for a closer look

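The GNA responses of 7 members differed between the 2 lines by a test of the difference itself (edgeR, shNRF2 minus shNC on the log2 scale, adjusted over all 15653 genes). The calls of P4HA2, NDRG1, PFKL and HIF1A held in all 21 alternative runs. That of P4HA1 held in 18, that of ENO2 in 12 and that of SLC2A3 in 7. P4HA2 had a difference of 0.95, with changes of 1.74 in shNRF2 and 0.78 in shNC. NDRG1 had 0.70, with 1.54 in shNRF2 and 0.83 in shNC, and P4HA1 0.36, with 0.44 and 0.08. ENO2 had 0.67, with 0.37 in shNRF2 and -0.30 in shNC. PFKL had -0.48, with -0.34 in shNRF2 and 0.15 in shNC. SLC2A3 had -0.44, with -0.70 in shNRF2 and -0.26 in shNC, and HIF1A -0.33, with -0.80 and -0.46. The 4 genes called higher in both lines under GNA (VEGFA, ADM, NDRG1 and P4HA2) stood beside HIF1A RNA that was lower in both lines. The 14 members called lower in both lines were 10 enzymes, SLC2A3, PFKFB3, EGLN3 and HIF1A itself. The ADM call held in 16 of 22 alternative runs in shNRF2 and in 11 of 22 in shNC. That of EGLN3 held in 15 of 22 in shNRF2, and that of SLC2A3 in 8 of 22 in shNC. RNA sequencing does not measure HIF1A protein.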

How the results depend on the processing

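Of 185 results on single members, 101 were called and 71 of these in every alternative run; of the others, 62 were called in none, and no result changed direction past the threshold. For the difference of the GNA responses 7 members were called, against 4 with limma on log2(FPKM + 1), 4 with limma on log2(FPKM + 0.1), and 4 to 8 with 1 library left out (4 without shNRF2 DMSO 1); the cause was not tested. Over all genes that difference was called for 1068, against 657 and 603 in these limma fits and 700 to 1437 with 1 library left out. With 1 library left out, the members called were 23 to 29 for GNA in shNRF2, 18 to 23 for GNA in shNC, 17 to 23 for the hairpins in GNA and 21 to 24 in DMSO. Scaling to library totals moved the median of all genes for GNA in shNC by about 0.1 on the log2 scale, and the members from a majority lower to 11 higher and 11 lower.

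The replicate numbers showed no pairing: 0 of 18 same-numbered pairs had a residual correlation over 0.1 (-0.082 to 0.0507), and 3 of 12 libraries correlated best with their own number. With the replicate block the members called were 27 for GNA in shNRF2, 22 for GNA in shNC, 20 for the hairpins in GNA, 24 in DMSO and 6 for the difference. Low counts limit HK2, SLC16A3, PDK1, LDHB, ANKRD37 and EGLN3 in shNRF2 cells.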
